A study of Mus musculus with 8 samples.

Results

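Cholesterol synthesis and its control by SREBP2 were followed through 30 listed genes in mouse liver 3 h after an injection of IL1B. The list holds the enzymes that build cholesterol from acetyl-CoA in pathway order, SREBP2 (encoded by Srebf2) with the proteins that hold, carry and cut it, and genes of sterol uptake, transport and esterification. Genes were listed by their place in the pathway, with earlier results of these data known, and each was measured as the average of all array features that carry its symbol and no other. Of the 30, 27 were measured, out of 22180 genes in all. Acat2 and Soat2 had no feature listed under their symbol in the annotation used, and the feature of Idi1 carries several symbols, so these 3 genes were not measured here.

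The study profiled whole liver RNA on 8 Affymetrix MoGene 2.0 ST arrays, 1 mouse each, to follow acute liver inflammation. For the IL1B group, recombinant interleukin 1 beta of mouse sequence, a pro-inflammatory cytokine, was given to 4 animals at 0.5 µg per mouse by the intraperitoneal route, and the 4 animals of the PBS group were given the vehicle. All were adult wild-type males, bought at 7 weeks of age and kept for 2 weeks before the experiment, and livers were taken at 3 h. The strain label reads C57BL/6 x CBA for IL1B mice and C57BL/6J for PBS mice, but the description of the series names C57BL/6J alone, so that treatment and strain label cannot be told apart. Nnt, the mitochondrial transhydrogenase whose gene is partly deleted in C57BL/6J mice, had log2 values of 9.17, 8.57, 9.73 and 9.70 in IL1B 1 to IL1B 4, against 9.59, 9.61, 10.04 and 9.23 in PBS 1 to PBS 4, and was not called (log2 fold change -0.32 ± 0.28 (SE), limma adjusted p = 0.506). The groups overlapped, and since it is not known here whether its feature lies within the deleted part, these values settle nothing about strain.

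Cholesterol is built in the endoplasmic reticulum and cytosol from acetyl-CoA through mevalonate, farnesyl diphosphate, squalene and lanosterol, at a high cost in energy and oxygen, and the liver is a main site of this synthesis in mammals. When membrane sterol is low, SCAP carries SREBP2 to the Golgi, where site-1 and site-2 proteases free its N-terminal part, which enters the nucleus and raises transcription of most genes of the pathway. When sterol is plentiful, INSIG proteins hold the SCAP and SREBP2 complex in the endoplasmic reticulum. The nuclear part binds sterol regulatory elements (SREs) in promoters, often beside sites for NF-Y (CCAAT boxes) and Sp1 (GC boxes).

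The promoters of members were searched for these motifs, and 5 are shown as examples. These hold close matches to the SRE or belong to members with higher values in IL1B livers, but other such members are not shown. Among those left out are Dhcr7 and Mbtps2, both called higher, and the Mbtps2 promoter held no match to the SRE, the CCAAT box or the GC box. Each line gives the 250 bases before the annotated start, 5′ to 3′ on the gene's strand, from RefSeq (GRCm38.p6). Capitals mark SRE matches with up to 1 mismatch and CCAAT boxes (CCAAT, or ATTGG where the box lies on the other strand). The printed bases lie at chr13:119690101-119690350 (+ strand) for Hmgcs1, chr15:82147019-82147268 (+ strand) for Srebf2, chrX:72918271-72918520 (+ strand) for Nsdhl, chr8:122443423-122443672 (- strand) for Mvd and chr8:64733579-64733828 (- strand) for Msmo1.
Hmgcs1: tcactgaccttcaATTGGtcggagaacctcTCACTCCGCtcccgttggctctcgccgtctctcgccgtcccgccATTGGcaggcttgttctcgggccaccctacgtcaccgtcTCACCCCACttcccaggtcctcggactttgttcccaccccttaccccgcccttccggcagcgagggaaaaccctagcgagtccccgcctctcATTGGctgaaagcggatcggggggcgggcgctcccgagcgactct
Srebf2: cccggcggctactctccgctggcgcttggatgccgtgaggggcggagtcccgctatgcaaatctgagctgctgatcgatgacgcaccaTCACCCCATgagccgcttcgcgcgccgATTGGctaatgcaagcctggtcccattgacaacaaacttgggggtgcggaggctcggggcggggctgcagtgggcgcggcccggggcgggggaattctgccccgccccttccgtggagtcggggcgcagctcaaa
Nsdhl: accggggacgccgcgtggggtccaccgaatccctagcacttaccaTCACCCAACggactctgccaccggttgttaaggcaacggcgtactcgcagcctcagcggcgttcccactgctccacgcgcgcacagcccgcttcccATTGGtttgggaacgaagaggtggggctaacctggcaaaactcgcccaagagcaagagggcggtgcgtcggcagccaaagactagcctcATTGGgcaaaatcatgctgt
Mvd: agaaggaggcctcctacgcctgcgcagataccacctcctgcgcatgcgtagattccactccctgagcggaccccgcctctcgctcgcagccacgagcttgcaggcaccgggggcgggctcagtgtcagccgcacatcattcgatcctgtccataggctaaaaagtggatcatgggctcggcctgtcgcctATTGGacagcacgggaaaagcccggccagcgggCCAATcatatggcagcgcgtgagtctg
Msmo1: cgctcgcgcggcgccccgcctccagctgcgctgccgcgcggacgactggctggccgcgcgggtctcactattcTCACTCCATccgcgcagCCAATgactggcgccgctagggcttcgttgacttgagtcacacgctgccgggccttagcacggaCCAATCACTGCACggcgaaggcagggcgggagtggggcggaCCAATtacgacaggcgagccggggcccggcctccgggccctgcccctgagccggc

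A RefSeq promoter window, 250 bases before to 50 bases after the start, was matched for 22 of the 27 measured members, with 28 windows in all. No window was matched for Sqle, Fdps, Fdft1, Stard4 or Npc1. The SRE was searched as TCACNCCAC on both strands. An exact match was found in Hmgcs1 alone of the 22 members (4.55%), as TCACCCCAC beginning 137 bases before the start, against 1.44% of the 27025 genes with a window. With up to 1 mismatch the SRE was found in 10 of the 22 members (45.5%), against 26.7% of all genes, so such a match is common. Srebf2 held TCACCCCAT at 162 bases before the start, Nsdhl TCACCCAAC at 205 bases and Msmo1 TCACTGCAC at 92 bases, the last sharing 1 base with a CCAAT box, while Mvd held none. CCAAT on either strand was found in 19 of the 22 members (86.4%), against 41.1% of all genes, and GGGCGG on either strand in 19 of the 22 members, against 38.2% of all genes. By window, the shares over all 32851 windows were 1.24% and 24.2% for the SRE with no and with up to 1 mismatch, 37.4% for CCAAT and 35.7% for GGGCGG. A match describes these letters only. The CCAAT letters were in 4 of 5 members that were called higher in IL1B livers, in 15 of 16 that were not called and in 0 of 1 called lower (Scap). The SRE with up to 1 mismatch was in 3 of 5, 7 of 16 and 0 of 1 of these. With so few called members, whether either motif separates the members that changed cannot be decided and was not tested.

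Values are log2 values after robust multi-array averaging, in which 1 unit is a doubling of signal, and they are given from array 1 to array 4 of each group. A gene was called higher or lower at a limma adjusted p of 0.05 or less over all 22180 genes. The arrays correlated at 0.965 to 0.993 with each other over genes, and shared a ceiling of 19.93. The highest antigenomic background probe set, which matches no mouse sequence, lay at 6.65 to 6.67 in IL1B arrays and 6.66 to 7.08 in PBS arrays. All 7 hepatocyte markers lay within 1 unit of the ceiling in both groups. Neutrophil markers averaged 10.45, 11.02, 7.45 and 7.35 in IL1B 1 to IL1B 4, against 4.93, 5.39, 5.14 and 4.60 in PBS 1 to PBS 4, with 6 of 7 called higher and 6 of 7 at background in all PBS arrays. Kupffer cell and macrophage markers averaged 13.29, 12.57, 10.44 and 9.82 in IL1B livers, against 9.87, 11.00, 11.14 and 10.21 in PBS livers, with none of 7 called (0 genes by limma). IL1B 1 and IL1B 2 thus stood apart from IL1B 3 and IL1B 4 in both marker lists. In whole liver RNA, fewer cells of a type and less RNA per cell cannot be told apart.

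Across the 27 measured members, 6 were called higher in IL1B livers (Mvd, Sqle, Msmo1, Dhcr7, Srebf2 and Mbtps2) and 2 lower (Scap and Npc1). Over all genes, 7.19% were called higher and 5.32% lower, 12.5% in all (1594 and 1179 genes, or 1320 and 1512 after quantile normalization of the same values). The fold change was positive in 20 members and negative in 7, against 9323 positive and 12857 negative over all 22180 genes. The median log2 fold change was 0.38 in members and -0.06 over all genes. All genes include dim ones, which weigh on these shares and this median. With dim genes dropped, keeping those above background in at least 4 arrays, the all-gene median was 0.04. At this setting 1783 genes were called higher and 1147 lower. The members called were again 6 higher and 2 lower. Mvd, at background in all PBS arrays, passed this filter only through its IL1B values, so its call there adds no support. Values of the 2 groups did not overlap for 4 members that were higher (9.81% of all genes) and 2 that were lower (9.14%). The counts rested on single arrays. Without PBS 1, 9 members were called higher (4.88% of all genes) and 0 lower (677 of all genes). Without IL1B 1, IL1B 3, PBS 2 or PBS 4, 3 members were called higher, beside 1093 to 1325 of all genes. With IL1B 3 and IL1B 4 alone against all PBS arrays, a setting added after the data were seen, 2 were called higher (Mvd and Sqle) and 0 lower by limma. Over all 22180 genes, 1030 were called higher and 530 lower at this setting.

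**Figure D1:**
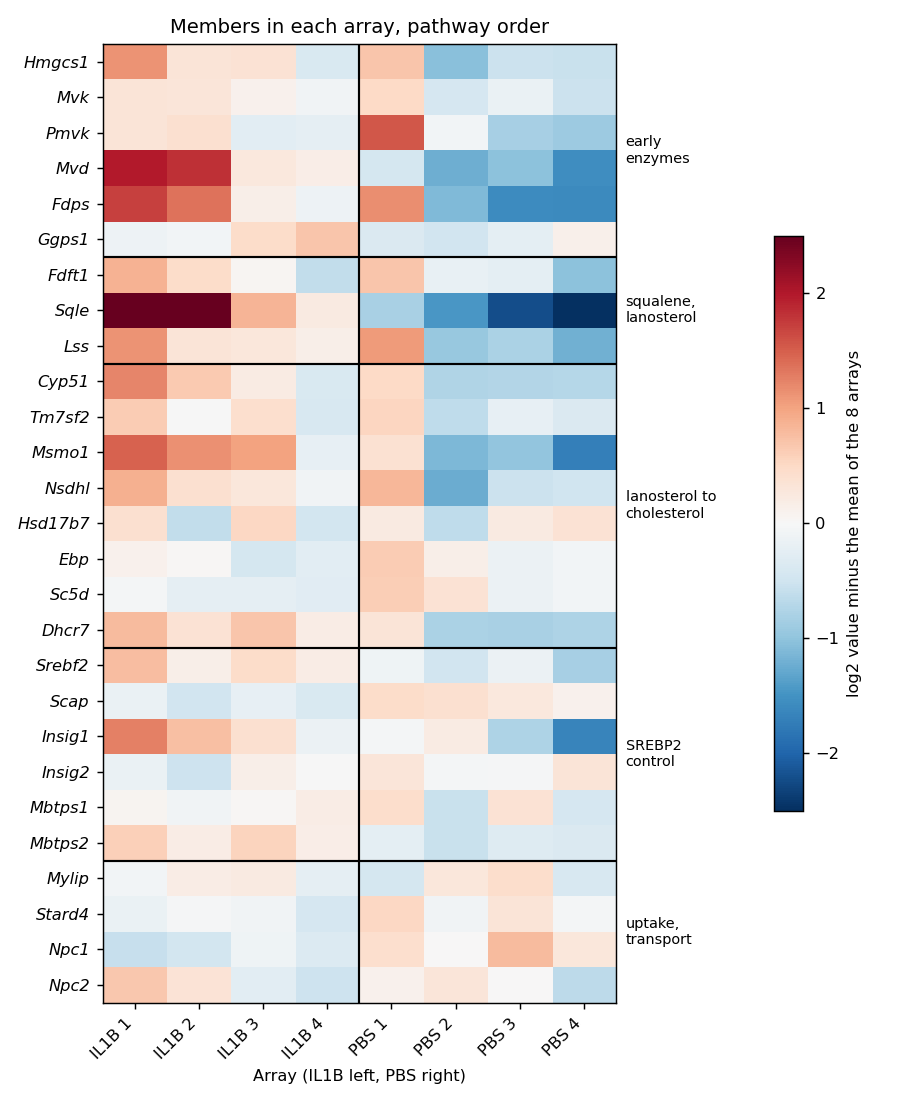
Heat map of the 27 measured members (rows, in pathway order) in each array (columns, IL1B 1 to IL1B 4 left and PBS 1 to PBS 4 right); colour is the log2 value minus the gene's mean over the 8 arrays, with the deepest colours also standing for values beyond the scale, and black lines separate the roles. Most enzyme rows are blue in PBS 2, PBS 3 and PBS 4, while PBS 1 is red in many of them and IL1B 4 is pale.

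The early enzymes lead from acetyl-CoA to farnesyl and geranylgeranyl diphosphate, and 6 of the 8 listed were measured. All 6 had positive fold changes (median 0.59), and 1 was called. Mvd, mevalonate diphosphate decarboxylase, which makes isopentenyl diphosphate, had values of 9.05, 8.88, 7.32 and 7.23 in IL1B livers, against 6.62, 5.83, 6.04 and 5.51 in PBS livers. Every IL1B array lay above every PBS array, and all PBS arrays lay at background, so that the difference has only a lower bound. The fitted log2 fold change, from the PBS values as they stand, was 2.12 ± 0.44 (SE, limma adjusted p = 0.0140). With background taken as the PBS level, the mean of Mvd was 2.51-fold higher in IL1B livers (1.33 log2 units). This bound compares means and was not itself tested. Mvd was called in each of the 8 fits that left out 1 array. Its values in IL1B 1 and IL1B 2 stood above those in IL1B 3 and IL1B 4, the same order as the neutrophil marker means, whose part in the result was not tested. With IL1B 3 and IL1B 4 alone Mvd was still called (fitted 1.28, limma adjusted p = 0.0391), but the bound from the means was lower, at 0.48 log2 units.

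Farnesyl diphosphate synthase, Fdps, stands at the branch to sterols, dolichol and prenylated proteins. It had values of 15.40, 15.05, 13.85 and 13.57 in IL1B livers, against 14.86, 12.59, 12.12 and 12.09 in PBS livers. PBS 1 was the one array that overlapped the IL1B range, and the fold change of 1.55 ± 0.64 log2 units (SE) was not called (limma adjusted p = 0.156). Without PBS 1 it was 2.20 and was called (limma adjusted p = 0.0205). Hmgcs1, the cytosolic HMG-CoA synthase that opens the mevalonate route, was also highest in array 1 of each group, with 15.24, 14.44, 14.47 and 13.73 in IL1B livers, against 14.82, 13.07, 13.58 and 13.55 in PBS livers. Its difference of 0.71 ± 0.40 log2 units was not called (95% interval -0.18 to 1.61, limma adjusted p = 0.290), although PBS 2, PBS 3 and PBS 4 all lay below every IL1B array.

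The other early enzymes overlapped between groups. Mvk, mevalonate kinase, had values of 7.25, 7.22, 7.04 and 6.84 in IL1B livers, against 7.43, 6.51, 6.75 and 6.38 in PBS livers, close to background in both (0.32 ± 0.23, limma adjusted p = 0.420). Pmvk, phosphomevalonate kinase, had 11.72, 11.80, 11.12 and 11.17 in IL1B livers, against 12.95, 11.32, 10.56 and 10.49 in PBS livers. PBS 1 held the highest Pmvk value of all 8 arrays, and the fitted difference was 0.13 log2 units with an interval from -0.97 to 1.22, its sign turning with quantile normalization and in fits without some arrays. Ggps1, which makes geranylgeranyl diphosphate for protein prenylation, had 9.46, 9.52, 10.04 and 10.29 in IL1B livers, against 9.23, 9.12, 9.34 and 9.73 in PBS livers (0.47 ± 0.22, limma adjusted p = 0.205). It was the one measured enzyme in which IL1B 3 and IL1B 4 both lay above IL1B 1 and IL1B 2.

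All 3 enzymes of the squalene and lanosterol steps were measured, with a median log2 fold change of 0.93, and 1 was called. Sqle, squalene epoxidase, which adds the first oxygen and is a control point of the pathway, had the largest fold change of the 27 members. It had values of 12.77, 12.95, 10.44 and 9.81 in IL1B livers, against 8.78, 8.14, 7.38 and 6.47 in PBS livers. The groups did not overlap, and Sqle was 13.9-fold higher in IL1B livers (log2 fold change 3.80 ± 0.76, 95% interval 2.10 to 5.50, limma adjusted p = 0.0114). In PBS 4 the Sqle value lay below the highest background probe set (6.70), so the PBS mean holds a value at background. Without PBS 4 the log2 fold change of Sqle was 3.39. It was called in each of the 8 fits that left out 1 array, in which the log2 fold change lay between 3.31 and 4.36. IL1B 1 and IL1B 2 lay well above IL1B 3 and IL1B 4. With IL1B 3 and IL1B 4 alone the log2 fold change was 2.43 (limma adjusted p = 0.0430). The neutrophil marker means of these arrays, 7.45 and 7.35, were still above those of all PBS arrays, and the part of these cells in the Sqle result was not tested.

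The steps on either side of Sqle were not called. Fdft1, squalene synthase, which commits farnesyl diphosphate to sterols, had values of 13.70, 13.28, 12.88 and 12.20 in IL1B livers, against 13.52, 12.64, 12.58 and 11.80 in PBS livers (0.38 ± 0.39, limma adjusted p = 0.593). Lss, lanosterol synthase, which closes the sterol rings, had 10.73, 9.92, 9.88 and 9.74 in IL1B livers, against 10.67, 8.66, 8.80 and 8.40 in PBS livers. In Lss, PBS 1 sat beside IL1B 1 while the other PBS arrays lay below all IL1B arrays. Its difference was 0.93 ± 0.46 (limma adjusted p = 0.234), and without PBS 1 it was 1.45 and was called (limma adjusted p = 0.0119).

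**Figure D2:**
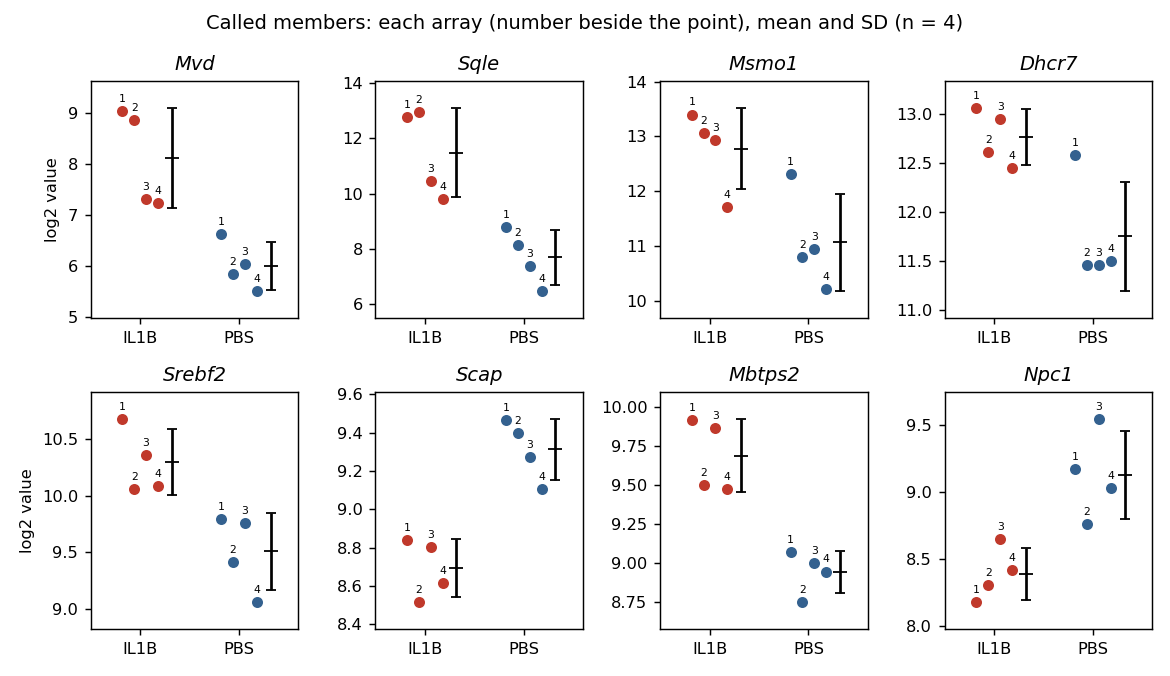
The 8 called members, 1 panel each, with the log2 value of every array (points, the array number beside each; IL1B left, PBS right) and the mean and SD of each group (n = 4) as a bar. In Mvd and Sqle the IL1B points lie above the PBS points and split into arrays 1 and 2 against arrays 3 and 4, in Msmo1 and Dhcr7 PBS 1 reaches into the IL1B range, and in Scap and Npc1 the IL1B points lie below the PBS points.

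All 8 enzymes that turn lanosterol into cholesterol were measured, of which 2 were called higher and 0 lower (median 0.53). Msmo1, sterol C4-methyl oxidase, had values of 13.40, 13.06, 12.93 and 11.71 in IL1B livers, against 12.31, 10.80, 10.94 and 10.21 in PBS livers. The groups overlapped in IL1B 4 and PBS 1 only. Msmo1 was 3.27-fold higher in IL1B livers (log2 fold change 1.71 ± 0.47, 95% interval 0.65 to 2.77, limma adjusted p = 0.0434). The call was kept without IL1B 4 or PBS 1 and lost without IL1B 1, IL1B 2, IL1B 3, PBS 2, PBS 3 or PBS 4 (log2 fold change 1.43 to 1.67, limma adjusted p 0.0914 to 0.114), after quantile normalization (1.61, limma adjusted p = 0.0551) and with array weights (1.62, limma adjusted p = 0.0607).

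Dhcr7, 7-dehydrocholesterol reductase, which makes cholesterol from 7-dehydrocholesterol, had values of 13.06, 12.61, 12.96 and 12.45 in IL1B livers, against 12.59, 11.46, 11.46 and 11.50 in PBS livers. The 3 lower PBS arrays lay close together and below every IL1B array, while PBS 1 lay within the IL1B range. Dhcr7 was 2.03-fold higher in IL1B livers (log2 fold change 1.02 ± 0.27, 95% interval 0.41 to 1.63, limma adjusted p = 0.0379). As with Msmo1, the call was kept only without IL1B 4 or PBS 1, and it was lost without IL1B 1, IL1B 2, IL1B 3, PBS 2, PBS 3 or PBS 4 (0.92 to 1.07, limma adjusted p 0.0599 to 0.102), after quantile normalization (0.93, limma adjusted p = 0.0509) and with array weights (0.97, limma adjusted p = 0.0508).

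Of the other post-lanosterol enzymes, Cyp51, the lanosterol demethylase, had values of 14.05, 13.47, 13.03 and 12.45 in IL1B livers, against 13.32, 12.07, 12.09 and 12.12 in PBS livers. The pattern was that of Dhcr7, with PBS 1 alone inside the IL1B range, and the difference of 0.85 ± 0.38 was not called (limma adjusted p = 0.188). Nsdhl, a sterol dehydrogenase of the C4 demethylation complex, had 15.64, 15.15, 15.04 and 14.67 in IL1B livers, against 15.58, 13.51, 14.22 and 14.26 in PBS livers. Its difference was 0.73 ± 0.39 (limma adjusted p = 0.271), and 1.13 with a call without PBS 1 (limma adjusted p = 0.0415). Tm7sf2, a sterol C14 reductase, had 13.96, 13.31, 13.73 and 12.92 in IL1B livers, against 13.85, 12.68, 13.11 and 12.96 in PBS livers (0.33 ± 0.29, limma adjusted p = 0.521).

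The 3 enzymes with negative fold changes all belong to this stretch, and none was called. Hsd17b7, a keto-reductase of the C4 demethylation complex, had values of 11.95, 10.92, 12.06 and 11.08 in IL1B livers, against 11.76, 10.90, 11.77 and 11.89 in PBS livers (-0.08 ± 0.32, limma adjusted p = 0.908), and its sign changed between fits that left out 1 array. Ebp, the sterol isomerase that moves the ring double bond, had 14.37, 14.29, 13.83 and 14.01 in IL1B livers, against 14.89, 14.40, 14.13 and 14.19 in PBS livers. Sc5d, the desaturase that makes 7-dehydrocholesterol, had 16.19, 16.01, 16.01 and 15.96 in IL1B livers, against 16.86, 16.60, 16.09 and 16.16 in PBS livers. For Ebp the difference was -0.28 ± 0.20 (95% interval -0.73 to 0.18) and for Sc5d -0.38 ± 0.19 (95% interval -0.80 to 0.04). Sc5d and Dhcr7, which act on neighbouring steps, thus had fold changes of opposite sign. The difference between them was not tested.

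As 1 list, 17 of 19 synthesis enzymes were measured, with 4 called higher and 0 lower by limma (7.19% and 5.32% of all genes). The fold change was positive in 14 of the 17 (9323 of all 22180 genes), with a median of 0.71 (-0.06 over all genes). The mean of the 17 log2 values was 12.82, 12.46, 12.15 and 11.75 in IL1B 1 to IL1B 4, against 12.35, 11.19, 11.23 and 11.04 in PBS 1 to PBS 4. That is 12.30 ± 0.45 in IL1B livers and 11.46 ± 0.61 in PBS livers (SD, n = 4 each), a difference of 0.84 log2 units, described with no test. PBS 1 was the highest PBS array in 15 of the 17 enzymes, and lay above the lowest IL1B array in 14 of them. With all arrays, the groups did not overlap in 2 of the 17, both higher in IL1B livers, against 9.81% of all genes. In 10 of the 17, every IL1B array lay above PBS 2, PBS 3 and PBS 4. That count leaves out PBS 1, the highest PBS array in most enzymes. Its share over all genes was not taken, so it cannot be set against other genes. Without PBS 1 the difference in the mean was 1.14, and with IL1B 3 and IL1B 4 alone it was 0.50.

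Within the IL1B group, IL1B 1 was highest in 13 of the 17 enzymes and IL1B 4 lowest in 13. IL1B 1 and IL1B 2 both lay above IL1B 3 and IL1B 4 in 11 enzymes, and the reverse held in 1. The neutrophil and the Kupffer cell and macrophage marker means were also higher in IL1B 1 and IL1B 2 than in IL1B 3 and IL1B 4. In the PBS group, PBS 1 was highest in 15 of the 17 enzymes and had the lowest Kupffer cell and macrophage mean. Its neutrophil mean lay inside the range of the other PBS arrays. Since 6 of 7 neutrophil markers were at background in all PBS arrays, their order there cannot be read. Whether these cells contributed to the enzyme values was not tested.

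**Figure D3:**
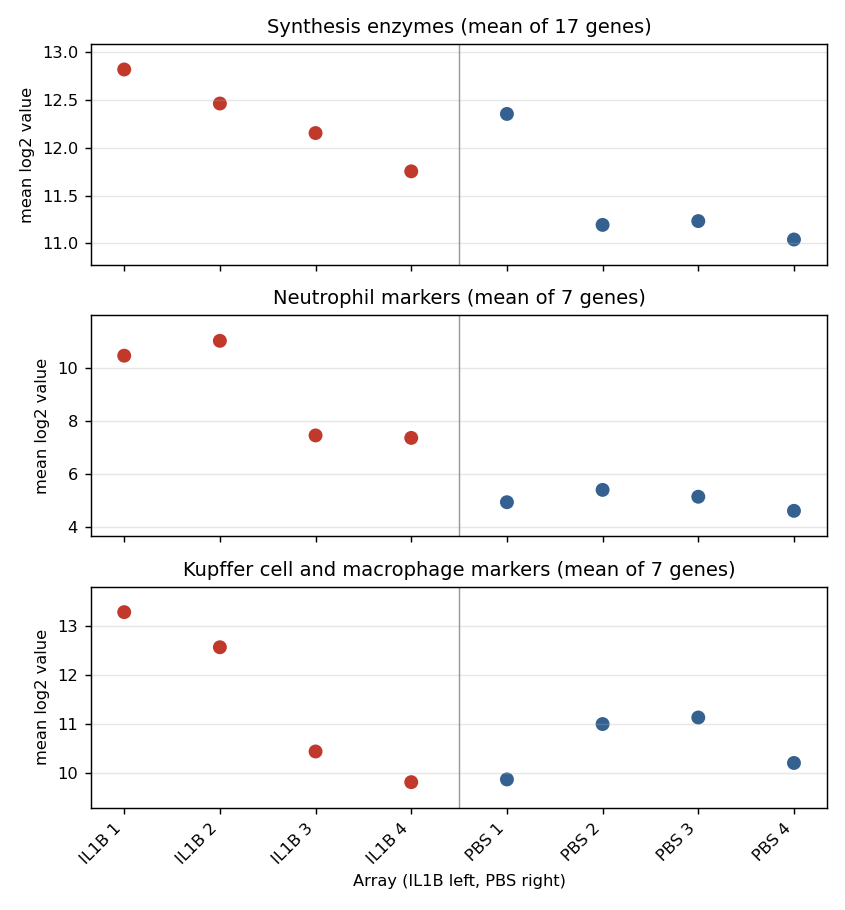
Mean log2 value per array (points; IL1B left, PBS right) of the 17 measured synthesis enzymes (top), 7 neutrophil markers (middle) and 7 Kupffer cell and macrophage markers (bottom). The enzyme mean spans 11.75 to 12.82 in IL1B arrays and 11.04 to 12.35 in PBS arrays, with PBS 1 far above the other PBS arrays. PBS 1 has the lowest Kupffer cell and macrophage mean of its group. In PBS arrays 6 of 7 neutrophil markers lie at background, so their order there cannot be read.

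All 6 genes of SREBP2 and its control were measured, and 2 were called higher and 1 lower (median 0.42). Srebf2, the transcription factor itself, had values of 10.67, 10.05, 10.36 and 10.09 in IL1B livers, against 9.79, 9.41, 9.76 and 9.06 in PBS livers. The groups did not overlap, and PBS 1 was the PBS array nearest to the IL1B range. Srebf2 was 1.73-fold higher in IL1B livers (log2 fold change 0.79 ± 0.21, 95% interval 0.32 to 1.25, limma adjusted p = 0.0367). The call was lost without IL1B 1, IL1B 3, PBS 2 or PBS 4 (0.64 to 0.77, limma adjusted p 0.0788 to 0.0952) and after quantile normalization (0.63, limma adjusted p = 0.0728).

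Mbtps2 encodes the site-2 protease, the intramembrane protease that releases SREBP2, and also ATF6, after the first cut. It had values of 9.91, 9.50, 9.86 and 9.47 in IL1B livers, against 9.07, 8.75, 8.997 and 8.94 in PBS livers. The groups did not overlap, each spread over less than the gap between their means, and Mbtps2 was 1.68-fold higher in IL1B livers (log2 fold change 0.75 ± 0.15, 95% interval 0.41 to 1.09, limma adjusted p = 0.0126). It was called in each of the 8 fits that left out 1 array (0.67 to 0.82), and with IL1B 3 and IL1B 4 alone the value was close to that of all arrays, at 0.73 (limma adjusted p = 0.0573). Mbtps1, the site-1 protease that makes the first cut, had 9.34, 9.18, 9.31 and 9.47 in IL1B livers, against 9.72, 8.72, 9.63 and 8.87 in PBS livers. All IL1B values lay inside the PBS range, and the difference was 0.09 ± 0.24 (95% interval -0.44 to 0.62), with a sign that turned after quantile normalization.

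Scap, the escort that carries SREBP2 to the Golgi, ran the other way. It had values of 8.84, 8.52, 8.80 and 8.62 in IL1B livers, against 9.47, 9.40, 9.27 and 9.11 in PBS livers. Every IL1B array lay below every PBS array, and Scap was at 0.651 of its PBS level in IL1B livers (log2 fold change -0.62 ± 0.14, 95% interval -0.93 to -0.31, limma adjusted p = 0.0187). The call was lost without PBS 1 (-0.57, limma adjusted p = 0.0594) and held in the other 7 fits that left out 1 array. Scap is the average of 2 features, of which the brighter had 12.52, 11.94, 12.23 and 11.97 in IL1B livers, against 13.52, 13.31, 13.06 and 12.75 in PBS livers. That feature alone differed by -0.99 (limma adjusted p = 0.0124), while the dimmer one lay below background in every array and differed by -0.24.

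Insig1 and Insig2 encode the retention proteins of the endoplasmic reticulum, of which Insig1 is itself a target of SREBP2. Insig1 had values of 16.76, 16.25, 15.90 and 15.36 in IL1B livers, against 15.46, 15.70, 14.72 and 13.85 in PBS livers. Only IL1B 4 fell inside the PBS range, and the difference of 1.14 ± 0.42 log2 units (95% interval 0.19 to 2.08) was not called (limma adjusted p = 0.116). Insig2 had 15.85, 15.50, 16.16 and 16.02 in IL1B livers, against 16.32, 15.97, 15.99 and 16.33 in PBS livers. Its difference was -0.27 ± 0.18 (95% interval -0.66 to 0.12, limma adjusted p = 0.369), so that the fitted signs of the 2 genes were opposite, with no test of the difference between them.

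**Figure D4:**
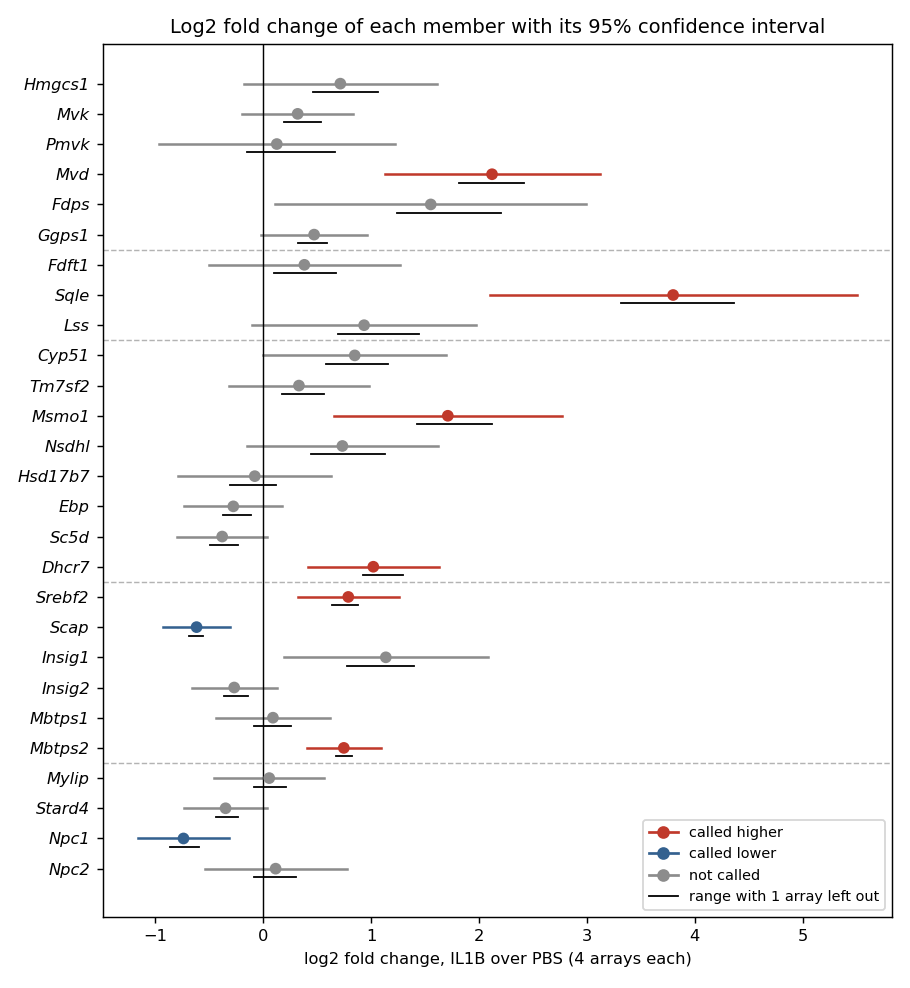
Log2 fold change of each of the 27 measured members, IL1B over PBS (x axis, 4 arrays a group), in pathway order from top to bottom, as points with 95% confidence intervals, coloured by call, and a thin black line under each for the range with 1 array left out. Sqle lies farthest right at 3.80 and Npc1 farthest left at -0.74, and the intervals of most members that were not called cross 0. For Mvd, at background in PBS livers, the fitted value is drawn.

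Of the genes of uptake, transport and esterification, 4 of 5 were measured, with 0 called higher and 1 lower by limma (median -0.15). Npc1, the membrane protein that moves cholesterol out of lysosomes, had values of 8.18, 8.31, 8.65 and 8.42 in IL1B livers, against 9.17, 8.76, 9.55 and 9.03 in PBS livers. The groups did not overlap, and Npc1 was at 0.599 of its PBS level in IL1B livers (log2 fold change -0.74 ± 0.19, 95% interval -1.16 to -0.32, limma adjusted p = 0.0302). The call was kept without IL1B 3 or PBS 2 and lost without IL1B 1, IL1B 2, IL1B 4, PBS 1, PBS 3 or PBS 4 (-0.77 to -0.60, limma adjusted p 0.0558 to 0.0863). The brighter of its 2 features had 12.09, 11.98, 12.77 and 12.61 in IL1B livers, against 13.45, 13.43, 13.93 and 13.08 in PBS livers, and differed by -1.11 (limma adjusted p = 0.0143). The dimmer one lay below background and differed by -0.37.

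Npc2, the soluble lysosomal protein that hands cholesterol to NPC1, had values of 12.34, 12.01, 11.41 and 11.15 in IL1B livers, against 11.78, 11.98, 11.67 and 11.02 in PBS livers. The groups overlapped, with a difference of 0.11 ± 0.29 whose sign turned after quantile normalization. Mylip, a ubiquitin ligase that lowers lipoprotein receptors, had 8.89, 9.15, 9.19 and 8.74 in IL1B livers, against 8.53, 9.25, 9.41 and 8.57 in PBS livers (0.06 ± 0.23, again with a sign that turned after quantile normalization). Stard4, a cytosolic sterol carrier and SREBP2 target, had 9.72, 9.85, 9.79 and 9.46 in IL1B livers, against 10.40, 9.79, 10.20 and 9.83 in PBS livers (-0.35 ± 0.17, 95% interval -0.74 to 0.04).

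Genes next to the pathway were read from 6 further lists. In the list of sterol-regulated degradation and SREBP trafficking in the endoplasmic reticulum, 15 of 18 genes were measured, with 2 called higher and 1 lower (median -0.19). Of the 15, 1 lay at background in both groups. Syvn1, a ubiquitin ligase of endoplasmic reticulum quality control, averaged 13.29 ± 0.77 in IL1B livers and 9.81 ± 0.31 in PBS livers (SD, n = 4 each), a log2 fold change of 3.48 ± 0.35 (SE, limma adjusted p = 0.000322). Sec24d, a cargo subunit of the COPII coat that takes proteins to the Golgi, averaged 13.46 ± 0.12 in IL1B livers and 12.14 ± 0.28 in PBS livers (1.31 ± 0.16, limma adjusted p = 0.00103). Both were called in each of the 8 fits that left out 1 array and with IL1B 3 and IL1B 4 alone. Sar1b, the GTPase that starts COPII assembly, averaged 17.11 ± 0.34 in IL1B livers and 17.93 ± 0.23 in PBS livers (-0.82 ± 0.19, limma adjusted p = 0.0238). The Sar1b call was lost without IL1B 1, IL1B 2, IL1B 3, PBS 1, PBS 3 or PBS 4 (-0.84 to -0.70, limma adjusted p 0.0511 to 0.0723).

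In the list of isoprenoid branches, which draw on farnesyl and geranylgeranyl diphosphate, 12 of 13 genes were measured, with 2 called higher and 0 lower by limma (median 0.03). Of the 12, 2 lay at background in both groups. Nus1, a subunit of the enzyme that makes the dolichol chain, averaged 13.09 ± 0.33 in IL1B livers and 11.97 ± 0.16 in PBS livers (1.12 ± 0.18, limma adjusted p = 0.00412), and was called in each of the 8 fits that left out 1 array. Pggt1b, the geranylgeranyl transferase subunit, averaged 10.91 ± 0.43 in IL1B livers and 9.91 ± 0.43 in PBS livers (1.00 ± 0.27, limma adjusted p = 0.0373), with overlapping groups. Its call was lost without IL1B 1, IL1B 3, IL1B 4, PBS 1, PBS 2 or PBS 3 (0.87 to 1.02, limma adjusted p 0.0709 to 0.0988) and after quantile normalization (0.86, limma adjusted p = 0.0513).

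In the list of LXR and sterol export, 7 of 8 genes were measured, with 1 called higher and 2 lower (median -0.04). Abca1, which loads cholesterol onto apolipoprotein A-I, had values of 15.93, 15.82, 15.73 and 15.82 in IL1B livers, against 13.99, 14.22, 13.65 and 14.18 in PBS livers. The IL1B arrays lay close together, and Abca1 was 3.52-fold higher in IL1B livers (log2 fold change 1.81 ± 0.15, limma adjusted p = 0.000126). Lpcat3, a phospholipid-remodelling target of LXR, averaged 13.97 ± 0.44 in IL1B livers and 16.08 ± 0.19 in PBS livers (-2.11 ± 0.22, limma adjusted p = 0.000389). Abcg8, a subunit of the canalicular sterol exporter, had 11.08, 9.80, 12.12 and 12.70 in IL1B livers, against 13.41, 13.87, 13.56 and 13.25 in PBS livers (-2.10 ± 0.53, limma adjusted p = 0.0307). Abca1 and Lpcat3 were called in each of the 8 fits that left out 1 array, whereas Abcg8 lost its call without IL1B 1, PBS 1, PBS 2, PBS 3 or PBS 4 (-2.19 to -1.98, limma adjusted p 0.0581 to 0.0829). The 3 called genes of this list did not move in 1 direction.

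In the list of oxysterol synthesis, all 6 genes were measured, 3 of them at background in both groups, with 0 called higher and 1 lower by limma (median -0.19). Hsd3b7, a dehydrogenase of bile acid and oxysterol metabolism, averaged 14.11 ± 0.59 in IL1B livers and 15.29 ± 0.33 in PBS livers (-1.18 ± 0.29, limma adjusted p = 0.0279). Its call was lost without IL1B 1, PBS 1, PBS 3 or PBS 4 (-1.26 to -1.08, limma adjusted p 0.0503 to 0.0821). In the list of sterol uptake and intracellular transport, 14 of 16 genes were measured, 3 of them at background in both groups, with 2 called higher and 3 lower (median -0.25). Osbp, which exchanges sterol between the endoplasmic reticulum and the Golgi, averaged 13.86 ± 0.32 in IL1B livers and 12.54 ± 0.28 in PBS livers (1.32 ± 0.20, limma adjusted p = 0.00301). Gramd1a, which moves plasma membrane cholesterol to the endoplasmic reticulum, averaged 8.29 ± 0.50 in IL1B livers and 7.15 ± 0.21 in PBS livers (1.13 ± 0.24, limma adjusted p = 0.0154). Stard5, a sterol-binding START protein, averaged 11.63 ± 0.52 in IL1B livers and 13.25 ± 0.55 in PBS livers (-1.61 ± 0.32, limma adjusted p = 0.0110). Lima1, an actin-binding protein linked to intestinal cholesterol uptake, averaged 10.76 ± 0.20 in IL1B livers and 11.68 ± 0.30 in PBS livers (-0.92 ± 0.18, limma adjusted p = 0.00993). These 4 genes were called in each of the 8 fits that left out 1 array, while the calls of Stard5 and Lima1 were lost with IL1B 3 and IL1B 4 alone (-1.17 and -0.79).

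The SREBP1 and fatty acid list, the sister branch of the same transcription factor family, had all 13 genes measured, with 1 called higher and 0 lower by limma (median -0.05). Among these, Scd1 lay at the ceiling in both groups, so a change in it could not be seen. Elovl6, the elongase of saturated fatty acids, had values of 15.94, 14.91, 16.21 and 16.10 in IL1B livers, against 14.62, 13.46, 14.49 and 14.54 in PBS livers (1.51 ± 0.34, limma adjusted p = 0.0187). Its call was lost without IL1B 1 (1.46, limma adjusted p = 0.0542) or IL1B 3 (1.37, limma adjusted p = 0.0511). Srebf1, which was singled out after its values were seen as the paralogue of Srebf2, had 8.53, 7.87, 9.06 and 9.83 in IL1B livers, against 10.09, 10.67, 10.01 and 9.27 in PBS livers. The groups overlapped in IL1B 4 and PBS 4, and Srebf1 was not called (log2 fold change -1.19 ± 0.42, limma adjusted p = 0.0978), except without IL1B 4 (-1.52, limma adjusted p = 0.0322). Srebf2 and Srebf1 thus had fitted fold changes of opposite sign, and the difference between them was not tested.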

How the data were processed

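Liver RNA of 4 IL1B and 4 PBS mice was labelled and hybridized to 1 MoGene 2.0 ST array per mouse. Per the labels and the study's methods, the authors turned the scans into log2 values with Affymetrix Power Tools through GIANT in Galaxy, with GC correction where offered, scaled intensities and robust multi-array averaging. That method normalizes between arrays and would partly remove a global difference. The sources used here give no version of the tool. Of 41345 features, 23521 carried a single gene symbol in the platform annotation, 1820 carried several and 16004 carried none. The single-symbol features were averaged to 22180 genes, and 0 sample columns were unused.

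Sample titles gave the groups. The gene test was limma 3.58.1 under R 4.3.3 (lmFit, eBayes), with group as factor and Benjamini-Hochberg adjustment across the 22180 genes. SE and intervals are those of this fit, and SD is between mice. Values within 1 log2 unit of the ceiling, or no higher than the highest background probe set, throughout a group were taken as the end of the scale, and a bound against background is given. The scripts were tested on simulated data. No pair of arrays shared more than 0.341% of its values, so all 8 counted as samples. No batch is labelled. Adjusted p-values reflect the spread between these mice, and the number of arrays limits precision.

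The text names all members, up to 2 called genes with the highest and up to 2 with the lowest fold change of each of 6 pathway lists, and Nnt, with Srebf1 added after its values were seen. Marker lists covered hepatocytes, macrophages with Kupffer cells, neutrophils, sinusoidal endothelial cells (1 of 7 called higher, 3 lower), stellate cells (1 of 7 lower), lymphocytes (6 of 6 measured at background in both groups, 1 of them called lower) and cholangiocytes (1 of 5 higher). Members and lists were chosen with earlier results of these data known, and another spelling of the SRE was searched before the one given. Other settings tried were an adjusted p of 0.15 (the study's cutoff), quantile normalization, centring on the median, taking the brightest feature of a gene, dropping dim genes, a trend with robust eBayes, array weights, a replicate block and leaving out each array. Promoters came from RefSeq (GRCm38.p6), and figures were drawn with matplotlib 3.10.9.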

Additional observations from a re-analysis of the deposited data

Results flagged for a closer look

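The highest or lowest array of each member in each group was compared with the rest of its group by Dixon's gap ratio. Of 54 sets of values, 3 exceeded its 95% critical value, where chance gives about 1 in 20. Cyp51 was 13.32 in PBS 1, against 12.07 to 12.12 in the other PBS arrays. Dhcr7 was 12.59 in PBS 1, against 11.46 to 11.50 in the other PBS arrays. Hsd17b7 was 10.90 in PBS 2, against 11.76 to 11.89 in the other PBS arrays.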

How the results depend on the processing

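With 4 arrays a group, calls near the threshold turned on single arrays, and the array scale limits what can be said of Mvd, at background in PBS livers. Of the named genes, 22 were called. Leaving out 1 array kept these calls 130 times and lost them 46 times of 176, and the other settings kept them 159 times and lost them 17 times of 176. The 21 named genes that were not called gained a call in 4 of 168 fits that left out 1 array and changed sign in 12, and did so in 3 and 8 of 168 fits under other settings. The count of all genes called, 2773, was 5226 at an adjusted p of 0.15, 1560 with IL1B 3 and IL1B 4 alone (added after the data were seen) and 1759 to 2409 with 1 array left out. Quantile normalization moved the share of calls that were higher to 46.6%, against 57.5%. The 6 members called higher became 3 after quantile normalization and 4 with array weights. They became 2 with IL1B 3 and IL1B 4 alone and 3 to 9 with 1 array left out. The 2 called lower became 0 with IL1B 3 and IL1B 4 alone and 0 to 2 with 1 array left out. At an adjusted p of 0.15, 7 members were higher and 2 lower, against 11.9% and 11.7% of all genes. The enzyme mean difference of 0.84 lay between 0.67 and 1.14 with 1 array left out, and was 0.77 after quantile normalization, 0.87 after median centring and 0.50 with IL1B 3 and IL1B 4 alone. The cause of these changes was not tested.

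Fold changes that reversed were all of genes not called. With IL1B 3 and IL1B 4 alone these were Pmvk (-0.18), Fdft1 (-0.096), Npc2 (-0.33) and Nnt (0.099). After quantile normalization they were Pmvk (-0.0087), Mbtps1 (-0.065), Mylip (-0.12) and Npc2 (-0.019). With 1 array left out, Pmvk ranged over -0.15 to 0.66, Hsd17b7 over -0.31 to 0.12, Mbtps1 over -0.083 to 0.25, Mylip over -0.082 to 0.21 and Npc2 over -0.090 to 0.31.

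Deviations of same-numbered arrays of the groups correlated at -0.07, 0.22, 0.05 and 0.12. No correlations of unlike-numbered arrays were taken for comparison, so whether same-numbered arrays share more than a number was not tested. Among the 17 synthesis enzymes, IL1B 1 was highest of its group in 13 and PBS 1 in 15. With a replicate block, 2562 genes were called, 1468 higher and 1094 lower. At this setting 9 members were called higher, Fdps, Cyp51 and Insig1 being added, and Abcg8 was not called (adjusted p 0.0515 by limma).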
